A study of Mus musculus with 6 samples.

Results

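Stand-alone lincRNA promoters were examined for H3K4me3 and ASH2L in mouse embryonic stem (ES) cells. A gene was a member if the GENCODE vM21 annotation of GRCm38.p6 (mm10) types it as lincRNA, if it lies on chromosomes 1 to 19, and if its 5′ gene end is more than 5000 bp from the start of every protein-coding transcript. Of 51229 annotated genes on these chromosomes, 5209 were lincRNA genes and 4557 of them were members. The promoter window began 1000 bp before the 5′ gene end and closed 100 bp after it, and it counted as marked if a peak overlapped it by 1 bp or more. All of the 4557 members entered every count, with no filter on signal.

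The data were CUT&RUN profiles, in which an antibody tethers a nuclease to its target and the released DNA is sequenced, from E14 cells, an established mouse ES cell line. The 6 samples fall into 3 conditions of 2 biological duplicates each: anti-HA in HA-ASH2L cells, anti-H3K4me3 in HA-ASH2L cells, and the HA profile of parental E14 cells of wild-type genotype, which was not analysed here. The labels give the HA-ASH2L cells as an HA-Ash2L knock-in, while their treatment text names a transgene induced with doxycycline, and all conditions received doxycycline for 48 h. The ASH2L profile is therefore that of the tagged protein after induction, in 1 cell line, and there is no H3K4me3 profile of cells without the tag.

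H3K4me3 is the histone mark of active and poised promoters, and it is deposited by the MLL/SET1 methyltransferase complexes, of which ASH2L is a core subunit. It is commonly broadest at promoters rich in CpG dinucleotides, the CpG islands. LincRNA genes are transcribed by RNA polymerase II from intergenic sequence, and many are expressed in only a few cell types. Members are counted here apart from lincRNA genes close to a protein-coding start, because there a peak can belong to either gene.

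The H3K4me3 list held 58571 peaks on chromosomes 1 to 19 and the ASH2L list 2452, from 27328071 and 25677963 tags after filtering. The authors called both on merged duplicates, so there is 1 value for each peak, no spread between samples and no test of any difference. Intervals in brackets are 95% Wilson intervals, which cover counting error only. Promoters are not replicates. As a check of the cell type, 3 of 8 ES cell genes had an H3K4me3 peak at the promoter, Zfp42, Tfcp2l1 and Klf4, and 5 did not, Pou5f1, Nanog, Sox2, Esrrb and Tdgf1, with the nearest peak 4069 to 25135 bp from the start. Of 8 genes of other cell types, 2 had a peak, Krt5 with 30 tags and Gfap with 48. Since the list has no peak at 5 genes that define ES cells, a member without a listed peak is not shown to lack the mark.

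The sequences of 5 promoters introduce the range of the members. Each runs from 250 bp before to 49 bp after the 5′ gene end, is read 5′ to 3′ on the strand of the gene from GRCm38.p6, and has its CpG dinucleotides in capitals. Lockd, transcribed downstream of the cell cycle inhibitor gene Cdkn1b, is shown because its promoter window carries both H3K4me3 and ASH2L (chr6:134928842-134929141, plus strand, 13 CpG). Its ASH2L peak ended 319 bp before the 5′ gene end, outside the printed bases. Lncenc1, a lincRNA of naive ES cells (chr13:97434720-97435019, plus strand, 4 CpG), and Platr10, a pluripotency-associated transcript (chr3:75655682-75655981, minus strand, 1 CpG), are shown as promoters with few CpG under wide peaks with many tags. Malat1, an abundant RNA of nuclear speckles (chr19:5802623-5802922, minus strand, 10 CpG), and Hotair, a lincRNA of the HoxC cluster (chr15:102947681-102947980, minus strand, 4 CpG), are shown as promoters with no peak in either list.
Lockd: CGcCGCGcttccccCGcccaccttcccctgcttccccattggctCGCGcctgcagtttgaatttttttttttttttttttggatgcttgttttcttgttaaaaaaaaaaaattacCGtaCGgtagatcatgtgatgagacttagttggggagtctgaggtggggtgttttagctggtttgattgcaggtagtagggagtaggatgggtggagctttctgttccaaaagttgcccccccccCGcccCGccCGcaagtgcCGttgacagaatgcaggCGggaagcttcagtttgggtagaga
Lncenc1: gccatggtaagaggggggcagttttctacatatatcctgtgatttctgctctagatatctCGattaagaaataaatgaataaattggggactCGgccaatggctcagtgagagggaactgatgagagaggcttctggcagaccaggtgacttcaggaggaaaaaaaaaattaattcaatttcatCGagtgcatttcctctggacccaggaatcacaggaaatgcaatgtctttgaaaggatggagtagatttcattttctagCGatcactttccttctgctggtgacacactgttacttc
Platr10: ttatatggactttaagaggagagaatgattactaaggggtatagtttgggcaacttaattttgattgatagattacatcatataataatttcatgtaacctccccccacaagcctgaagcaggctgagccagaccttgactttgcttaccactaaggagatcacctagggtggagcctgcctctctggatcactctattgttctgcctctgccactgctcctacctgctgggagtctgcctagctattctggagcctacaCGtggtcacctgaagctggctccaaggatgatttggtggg
Malat1: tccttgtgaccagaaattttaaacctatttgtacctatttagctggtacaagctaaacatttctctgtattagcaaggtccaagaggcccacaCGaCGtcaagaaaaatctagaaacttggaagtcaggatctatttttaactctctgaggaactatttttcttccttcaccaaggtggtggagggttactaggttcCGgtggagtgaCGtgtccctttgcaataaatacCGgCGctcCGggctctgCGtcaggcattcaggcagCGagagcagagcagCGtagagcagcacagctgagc
Hotair: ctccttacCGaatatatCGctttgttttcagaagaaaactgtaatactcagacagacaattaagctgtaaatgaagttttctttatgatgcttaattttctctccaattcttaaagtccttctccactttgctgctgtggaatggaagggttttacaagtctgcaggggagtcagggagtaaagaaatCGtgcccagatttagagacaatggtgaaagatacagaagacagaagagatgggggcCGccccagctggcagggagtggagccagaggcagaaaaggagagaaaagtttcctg

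H3K4me3 overlapped 881 of the 4557 promoters, or 19.3% (18.2 to 20.5). The share was 37.2% over all annotated genes, 65.0% (64.3 to 65.6) for 20807 protein-coding genes and 61.4% for the 16516 protein-coding genes that are themselves over 5000 bp from any other protein-coding start. It was 63.0% (59.3 to 66.7) for the 652 lincRNA genes within the distance limit. The members thus had the mark at a lower share than these groups, and at a higher one than processed pseudogenes, of which 8.49% had a peak. The level of the shares depended on the call. With the summit required inside the window they were 10.3% for members and 37.7% for protein-coding genes, and with peaks at or above the median fold enrichment 10.4% and 31.5%. H3K4me3 peaks covered 4.45% of the sequence of chromosomes 1 to 19. The 881 promoters shared 843 different peaks, since 37 peaks reached more than 1 member. In 14 members the promoter held 2 peaks.

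ASH2L overlapped 17 of the 4557 promoters, or 0.373% (0.233 to 0.597), against 3.19% over all annotated genes and 6.44% of protein-coding genes. Of these 17, 14 also had H3K4me3. A group of 3 of the 17 lies under a single peak of rRNA sequence on chromosome 17, described with the ASH2L results, and without it 14 of 4554 promoters (0.307%, 0.183 to 0.515) had ASH2L. The H3K4me3 share was 19.3% with and without that group. With the summit required inside the window, the ASH2L shares were 0.176% of members and 3.11% of protein-coding genes. At a p-value score of at least 100, where the cutoff of the list is 50, they were 0.0878%, or 4 members of which 3 are the rRNA group, and 0.827%.

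The marked lincRNA promoters had smaller peaks. Their median width was 1817 bp (quartiles 1198 and 2902), against 2945 bp (2198 and 3933) at marked protein-coding promoters. The median number of tags was 176 (79 and 350) against 476 (313 and 665). Peaks of under 100 tags made up 31.2% at lincRNA promoters and 4.59% at protein-coding ones, and peaks of 600 tags or more made up 8.97% and 32.3%. Width and tags followed each other across the 881 promoters, with a Spearman rho of 0.96 that both measures share through the size of the same peak. Per kb, the median lincRNA peak had 90.8 tags and the protein-coding one 156. The fold enrichment, which sets the summit against a background modelled from the same library, had medians of 6.64 and 6.38. The lincRNA peaks therefore differed from the protein-coding ones in extent and tags more than in fold enrichment.

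**Figure D1:**
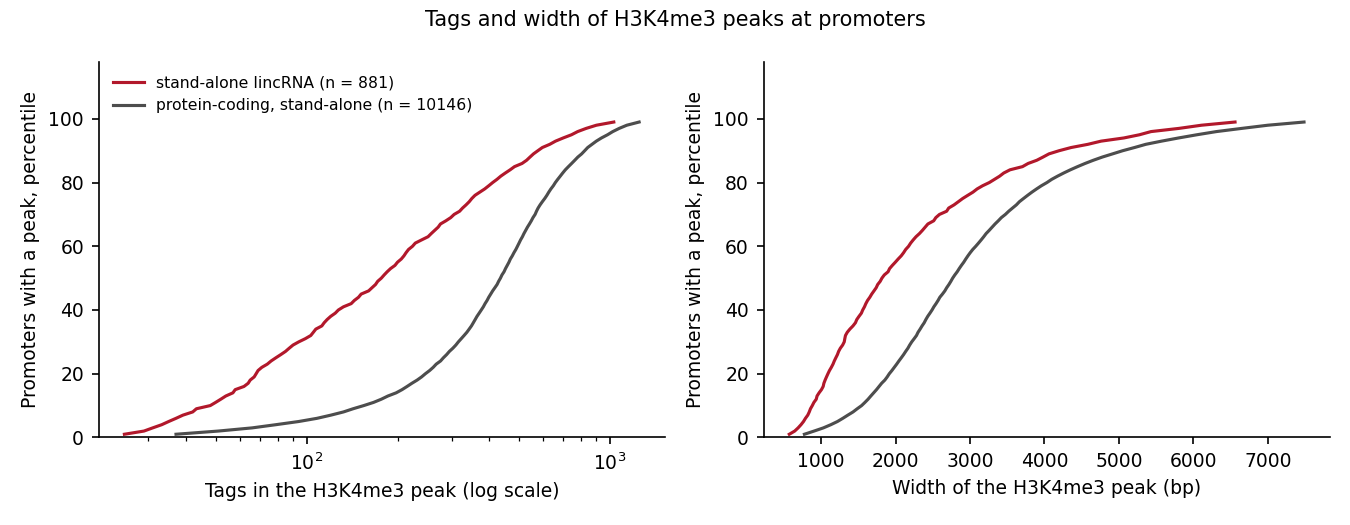
Cumulative share of promoters with an H3K4me3 peak (percentile, 1 to 99) by tags in the peak (left, log scale) and by peak width in bp (right), for stand-alone lincRNA genes (red, n = 881) and protein-coding genes over 5000 bp from other protein-coding starts (grey, n = 10146). The lincRNA curve lies to the left in both panels, with median tags of 176 against 435 and median widths of 1817 against 2767 bp.

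CpG content, as the observed number of CpG over the number expected from the C and G content of the promoter, separated the members further. Of 4141 members with a ratio under 0.4, 646 or 15.6% (14.5 to 16.7) had H3K4me3. In the class from 0.4 to under 0.6 it was 167 of 325 or 51.4% (46.0 to 56.8), and at 0.6 or more 68 of 91 or 74.7% (64.9 to 82.5). The higher classes had higher shares but fewer members, so that most of the marked lincRNA promoters, 646 of 881, were in the lowest class. In protein-coding genes the shares were 35.7%, 92.9% and 94.8% in the same classes. Within each class the lincRNA share was below the protein-coding one, and the intervals did not overlap. These levels also depended on the call. With the summit inside the window the lincRNA shares were 7.46% in the lowest class and 49.5% (39.4 to 59.5) in the highest, and the protein-coding ones 12.8% and, in the highest, 3797 of 5671 (65.7% to 68.2%). With peaks at or above the median fold enrichment they were 8.65%, 28.0% and 29.7% (21.3 to 39.7) against 20.4%, 53.7% and 32.9% (31.7 to 34.2), so that in the highest class the intervals then overlapped. The median ratio was 0.20 for members and 0.40 for protein-coding genes.

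Peak size followed the classes less evenly. Median tags of the marked members were 157, 190 and 431.5 from the lowest to the highest class, and median widths were 1721.5, 1798 and 3141.5 bp. All protein-coding genes had medians of 304, 442 and 605 tags. The highest class of lincRNA promoters was thus close to the middle protein-coding class in tags. Across the 881 marked members, CpG ratio and tags had a Spearman rho of 0.17, and across the 13515 marked protein-coding genes 0.48, where promoters that share a peak enter more than once and all come from the same merged library.

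The members with the highest CpG ratios apart from the rRNA group were Gm27017 (0.99, 433 tags), Gm40190 (0.93, 583 tags) and Gm27032 (0.93, 926 tags), all with H3K4me3. Within the class at 0.6 or more, 23 members had no H3K4me3 peak. Among them were Malat1 with a ratio of 0.79, Neat1, the scaffold RNA of paraspeckles, with 0.63, and Mir124a-1hg, a host gene of the neuronal miRNA miR-124, with 0.71. The nearest peak to these 23 was at a median of 9654 bp, and 18 of them had a peak within 20000 bp. For the 3495 unmarked members with a ratio under 0.4 the median was 19783 bp, and 1752 had one within 20000 bp.

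The share with H3K4me3 was also lower farther from protein-coding genes. It was 31.0% (86 of 277) for members over 5 to 10 kb from the nearest protein-coding start, 27.8% (408 of 1468) over 10 to 50 kb, 18.7% (319 of 1705) over 50 to 200 kb and 6.14% (68 of 1107) beyond 200 kb. In members with a CpG ratio under 0.4 alone, the shares were 26.2%, 22.6%, 15.4% and 4.69%, in the same order. With the summit inside the window, the 4 shares were 15.2%, 14.3%, 10.6% and 3.43%. Members beyond 200 kb also had the smallest peaks, with a median of 93.5 tags and 1326 bp. None of those 1107 members had an ASH2L peak, where the interval reaches 0.346%. Whether the nearest protein-coding gene was itself marked made little difference to the count. The share was 19.3% (642 of 3334) beside a marked protein-coding promoter and 19.5% (239 of 1223) beside an unmarked one.

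**Figure D2:**
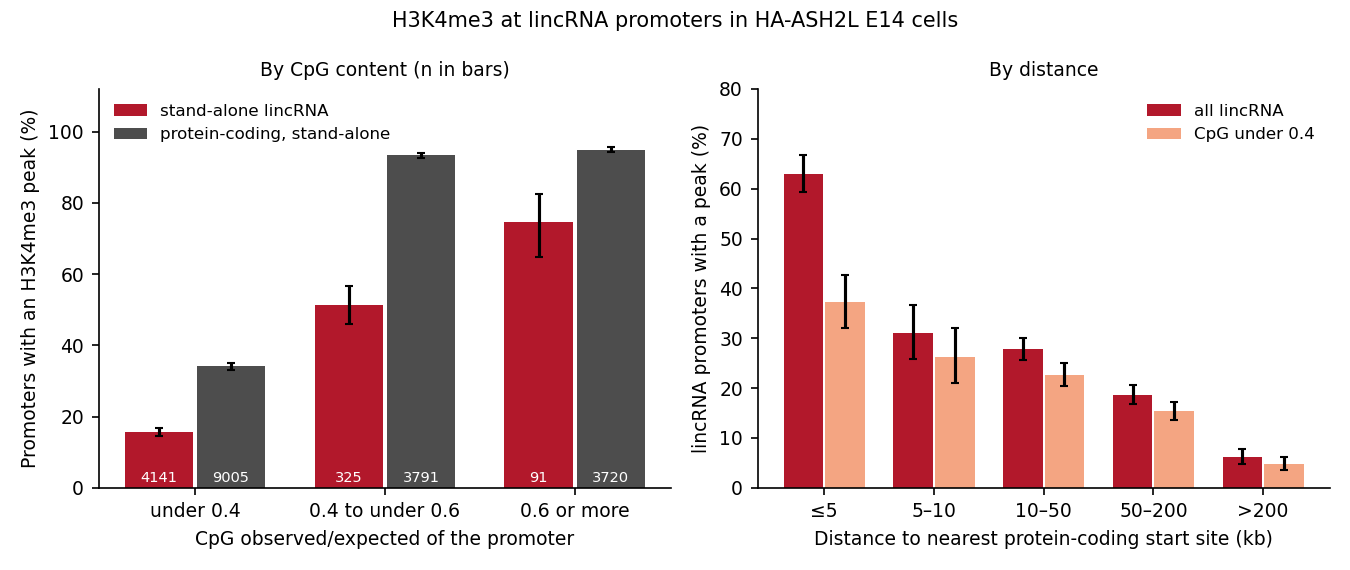
Share of promoters with an H3K4me3 peak, with 95% Wilson intervals. Left, by CpG ratio for stand-alone lincRNA (red) and protein-coding genes over 5000 bp from other protein-coding starts (grey), where lincRNA shares are 15.6%, 51.4% and 74.7%. Right, by distance to the nearest protein-coding start for all lincRNA genes (red) and those with a ratio under 0.4 (light), including the 652 non-members within 5 kb, from 63.0% at the left to 6.14% at the right.

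At the distance limit itself, AW121686, 5002 bp from the start of Tcf20, had a peak of 86 tags, and Gm37552, 5027 bp from Gpr25, had none. Just within the limit, Gm15729 at 4987 bp from Cep19 had none and B230311B06Rik at 4969 bp from Tmc5 had a peak of 658 tags. No H3K4me3 peak at a member extended to a protein-coding transcript start.

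The gene models differed less. Members named by a Gm number were marked in 17.5% (16.3 to 18.9), those named by a Riken clone in 21.9% (19.3 to 24.7) and those with another symbol in 26.3% (22.6 to 30.4). The shares were 17.4%, 20.5% and 18.8% for gene models of 1 exon, 2 exons, and 3 or more. Of 3 equal groups by gene length, the longest, over 15580 bp, was marked in 15.6%, the middle one in 21.3% and the shortest in 21.1%. Their median distances to a protein-coding start were 125773, 63125 and 55329 bp, and length was not separated from distance. Promoters whose window was 50% or more repeat-masked had the mark in 9.42% (47 of 499), against 21.4% (211 of 986) where under 10% was masked. By chromosome the share ran from 11.0% (7.63 to 15.7) on chromosome 14 to 32.5% (26.4 to 39.3) on chromosome 17, where 65 of 200 members were marked from 60 different peaks. Chromosome 17 holds the rRNA group, which is 3 of these 65. Protein-coding genes were marked in 51.2% on chromosome 14 and 62.3% on chromosome 17.

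H3K4me3 summits lay around the annotated 5′ end of the members but with a wider spread than at protein-coding genes. The median offset of the summit was −37 bp with an interquartile range of 635 bp, where negative is upstream, against 28 bp with a range of 373 bp at protein-coding genes. Only peaks that overlapped the window entered, and the window reaches farther upstream than downstream. With 1000 bp on both sides, marked members rose from 881 to 992 and marked protein-coding genes from 13515 to 13824. The part of the window in the offsets was not tested. The peak covered the 5′ end itself at 85.9% of the marked members and at 98.2% of marked protein-coding genes. The summit was within 500 bp of the 5′ end at 65.2% and 79.1%. Platr3 and Platr30 are examples of members whose peak overlapped the window but ended upstream of the start, by 325 and 921 bp.

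**Figure D3:**
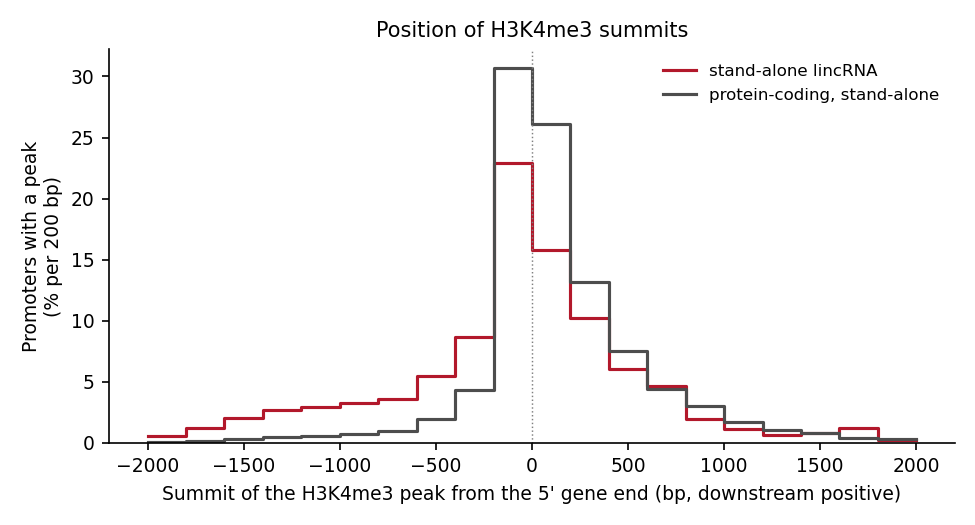
Offset of the H3K4me3 summit from the 5′ gene end in bp (downstream positive), as the percentage of promoters with a peak in each 200 bp bin, for stand-alone lincRNA (red) and protein-coding genes over 5000 bp from other protein-coding starts (grey). The 200 bp upstream of the start hold 22.9% of lincRNA and 30.7% of protein-coding summits, and the lincRNA line is higher further upstream. Only peaks that overlap the promoter window, which reaches farther upstream than downstream, are counted.

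Short sequence motifs were counted in the 300 bp from 250 bp before to 49 bp after the 5′ gene end, on both strands. No word is part of another, and the ETS and NRF1 words each contain CpG. The TATA word TATAAA was present in 11.8% (9.84 to 14.1) of marked and 18.6% (17.4 to 19.9) of unmarked lincRNA promoters, against 17.2% of all annotated promoters. The order was the same in each CpG class, with 12.2% and 18.6% in the lowest. In the middle and highest classes, which held fewer members, the intervals overlapped. CCGGAAG, the core word of ETS factors, was found in 7.83% (6.24 to 9.79) of marked and 2.39% (1.95 to 2.94) of unmarked members, and in 6.11% of all promoters. In the lowest CpG class it was 5.88% and 2.23%. CCAAT was in 35.1%, 38.6% and 38.2% of marked members, unmarked members and all promoters. The palindromic NRF1 word was in 2 marked members, no unmarked member, and 0.591% of all promoters. Marked members had a median of 7 CpG in this window and unmarked ones 3, while marked protein-coding promoters had 19. Of the printed promoters, Lockd with 13 CpG was above the median of marked members, and Lncenc1 and Platr10 with 4 and 1 were below it, although both had over 1000 tags. These are matches of letters and not evidence of binding.

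The lincRNAs with most H3K4me3 tags, apart from the rRNA group with 3666 tags, were 3 ES cell transcripts, Platr10, Platr19 and Lncenc1, and 4 genes named by number or clone. 2410080I02Rik, 6326 bp from the start of the Krüppel-like factor gene Klf9 (chr19:23134900-23135717), had 1550 tags over 7811 bp. Platr10 (chr3:75647446-75655731) had 1221 tags over 6972 bp, and 1700096K18Rik (chr5:25530013-25531466), with a CpG ratio of 0.73, had 1175 tags. Platr19 (chr12:12787985-12794285), whose nearest protein-coding gene is Mycn, 152631 bp away, had 1139 tags. Gm14114 (chr2:146828327-146839732) had 1100 tags, Lncenc1 (chr13:97434970-97497007) 1053 and Gm17619 (chr2:170192449-170194053) 1023. These peaks were several times as large as the median of 176 tags, and their CpG ratios ranged from 0.14 at Platr10 to 0.73 at 1700096K18Rik. Gm17619 was also the widest at 7853 bp, followed by 2410080I02Rik, Gm14114 at 7354 bp, 4930434O05Rik at 7279 bp and Gm12052 at 7241 bp.

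Some of the widest peaks had scores near the cutoff. The p-value score, which rises as the p-value of the peak caller falls, is 50 at the cutoff of the list. Lncenc1 had a score of 70.53 with a fold enrichment of 2.68, Gm17619 71.31 with 4.09, and 4930434O05Rik 78.81 with 2.99. Mir155hg, with only 296 tags over 1948 bp, had 821.15 with a fold of 8.33. Over the 843 peaks at members, the median score was 201.58 for widths under 2000 bp, 444.23 from 2000 to under 4000, 347.71 from 4000 to under 6000 and 160.99 for the 21 peaks of 6000 bp or more. The whole list had 138.53, 493.88, 404.76 and 170.11, and in both the median score was highest at 2000 to under 4000 bp. Single wide peaks could still score high, and the highest score at a member was 1601.43, at the 6068 bp peak of the rRNA group, while Snhg6 had 587.49 over 5044 bp. Of all listed peaks of 6000 bp or more on these chromosomes, 22.3% scored under 100. The share was 5.38% from 4000 to under 6000 bp, 5.90% from 2000 to under 4000 bp and 34.7% under 2000 bp. Low scores were thus found at both ends of the widths. The widest peak of the list was 8609 bp, and the caller took its background from up to 10000 bp around a peak in the same library, with no control library. The part of this background in the absence of peaks at Malat1, Neat1 or the ES cell genes was not tested.

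**Figure D4:**
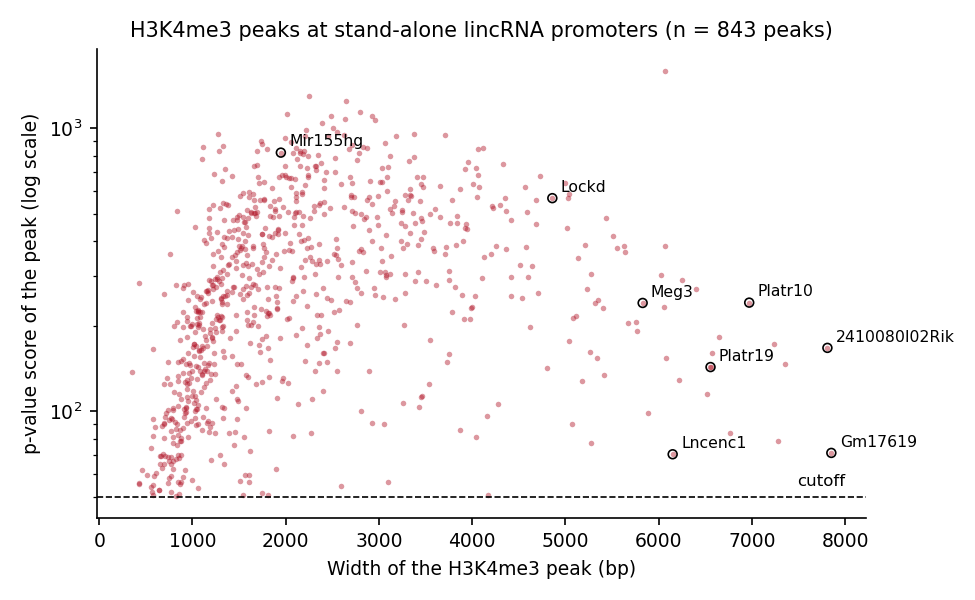
Width in bp and p-value score (log scale) of the 843 H3K4me3 peaks at stand-alone lincRNA promoters, with 8 named members circled and the cutoff of the list as a dashed line at 50. The median score is highest from 2000 to under 4000 bp, the single highest point is the rRNA group at 1601.43 and 6068 bp, and Lncenc1 and Gm17619, at over 6000 bp, lie near 70.

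A set of 41 members with known names was described as a group, chosen by symbol. H3K4me3 marked 22 of these 41 (53.7%, 38.7 to 67.9), against 19.3% of all members, with a median of 480 tags. This count depended on the call. It was 10 of 41 (24.4%, 13.8 to 39.3) with the summit inside the window, against 10.3% of all members, and 5 of 41 (12.2%, 5.32 to 25.5) with peaks at or above the median fold enrichment, against 10.4%. The Platr genes, named for pluripotency-associated transcripts, had 11 of 18 members marked (61.1%, 38.6 to 79.7), with 96 to 1221 tags and a median of 361. With the summit inside the window it was 7 of 18, without Platr3, Platr7, Platr28 and Platr30, and at or above the median fold enrichment 3 of 18, Platr26, Platr27 and Platr30. Below Platr10 and Platr19 came Platr6 with 838 tags, Platr30 with 530, Platr26 with 430, Platr11, near Eomes, with 361, Platr27 with 352, Platr7 with 349, Platr3 with 221, Platr1 with 162 and Platr28 with 96. Their median CpG ratio was 0.17, and all 11 marked Platr promoters were in the lowest CpG class. Platr2, Platr4, Platr5, Platr13, Platr15, Platr22 and Platr29 had no H3K4me3 peak.

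Among host genes of small RNAs chosen by symbol, 4 of 6 Mir...hg genes, which host miRNAs, and 2 of 3 Snhg genes, which host snoRNAs, were marked, against 19.3% of all members. With so few genes the intervals were wide, 30.0% to 90.3% and 20.8% to 93.9%. These counts also depended on the call. At or above the median fold enrichment, 1 of 6, Mir155hg, and 0 of 3 were marked, against 10.4% of all members. Mir9-3hg had 606 tags, Mir17hg, host of the miR-17-92 cluster, 555, Mir670hg 386 and Mir155hg 296. Of these, Mir17hg alone had its summit in the window, and the summits lay at −3850 bp at Mir9-3hg, 1658 bp at Mir670hg and 194 bp at Mir155hg. Mir124-2hg and Mir124a-1hg had none, with the nearest peaks 1688 and 5561 bp away. The snoRNA hosts Snhg6 and Snhg12 had 870 and 681 tags, the latter with its summit 1416 bp downstream of the start, and Snhg20 had none, with the nearest peak 4838 bp away. These 4 Mir...hg and 2 Snhg genes were above the median of all marked members in tags. Carmn, host of miR-143 and miR-145 but without such a symbol, was below it, with 54 tags in the larger of 2 peaks.

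Imprinted and functionally studied lincRNAs divided. Meg3, the maternally expressed gene of the Dlk1-Dio3 domain (chr12:109541001-109571726), had 684 tags over 5829 bp with the summit 2051 bp downstream of its start, while Mirg in the same domain had no peak within 19716 bp. H19, also imprinted and maternally expressed, had its nearest peak 26504 bp away. Epb41l4aos had 801 tags and Miat 348. No peak was listed at Malat1 (nearest 13099 bp), Neat1 (19500 bp), Pvt1 beside Myc (4855 bp), Trp53cor1 beside Cdkn1a (4318 bp), Hotair (3694 bp), the neuronal Rmst (1467 bp) or the cardiac Bvht (7225 bp). The unmarked named members thus ranged from neighbours of a peak to genes far from any.

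**Figure D5:**
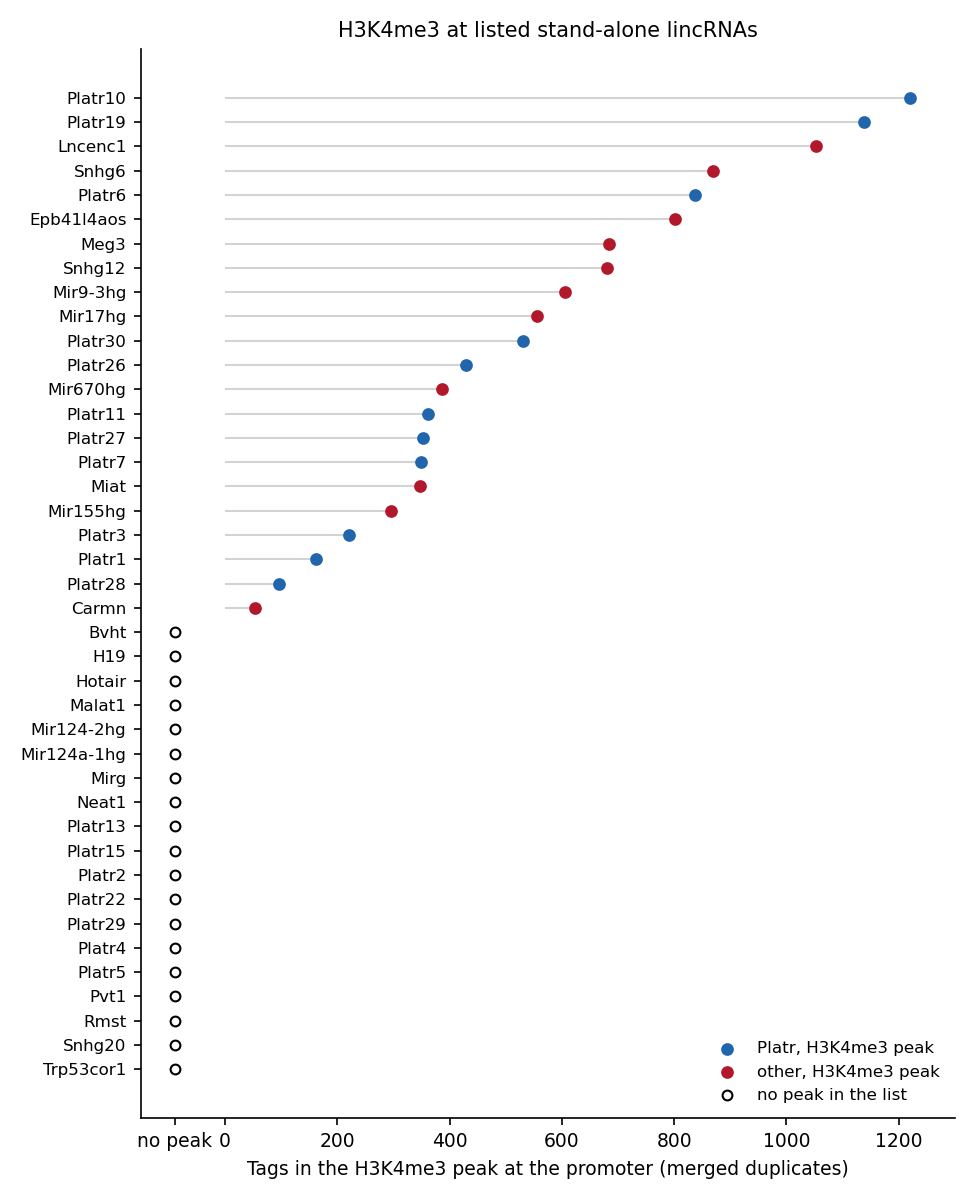
Tags in the H3K4me3 peak at the promoter of the 41 named members, from the merged duplicates, with Platr genes in blue, other members in red and members without a listed peak as open circles at the left. The 22 marked members range from 54 tags at Carmn to 1221 at Platr10.

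ASH2L peaks at members were few. Apart from that of the rRNA group, they were of ordinary size for the ASH2L list. Over all chromosomes, the list had medians of 32 tags and a fold enrichment of 5.37. Outside the rRNA group, 14 promoters shared 13 peaks of 21 to 49 tags, with a median of 31.5 tags and a fold enrichment of 5.18, against medians of 36 tags and 5.35 at 1341 protein-coding promoters. In 13 of the 14 the score was under 100, as it was in 87.2% of those at protein-coding promoters. Most ASH2L peaks of both groups were thus near the cutoff. The ASH2L share was higher at higher CpG ratios, from 0.193% of members under 0.4 to 0.923% in the middle class and 6.59% (6 of 91) at 0.6 or more. Without the rRNA group the last share was 4.49% (4 of 89, 1.76 to 11.0). Protein-coding genes had 1.34%, 8.64% and 13.9%.

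It was also higher at members with more H3K4me3 tags. Among marked members it was 0.364% under 100 tags, 0.597% from 100 to under 300, 2.08% from 300 to under 600 and 8.86% (7 of 79, 4.36 to 17.2) at 600 or more, or 5.26% (4 of 76, 2.07 to 12.8) there without the rRNA group. Marked protein-coding promoters had 1.45%, 3.47%, 9.63% and 14.2%. At like tags the lincRNA share was below the protein-coding one in each class, but the intervals overlapped in the class under 100 tags and, with the rRNA group, in that of 600 or more. Over all marked promoters it was 1.59% and 9.57%.

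Among the 11 members outside the rRNA group with both peaks, Gm26709 (chr12:72945807-72965931, CpG ratio 0.84) had 47 ASH2L tags, the fold enrichment was 6.07 and the score 112.37, the only one above 100, with 403 H3K4me3 tags and the ASH2L summit 12 bp from its start. Gm20109 and E230001N04Rik, which overlap on opposite strands of chromosome 17, shared an ASH2L peak of 49 tags and an H3K4me3 peak of 644. Gm38293 had 45 ASH2L tags and 558 H3K4me3 tags, and Gm34590 had 40 and 381. Lockd had 28 ASH2L tags with the summit 761 bp upstream of its start, within an H3K4me3 peak of 852 tags whose summit lay 767 bp upstream. Both peaks at Lockd were thus centred upstream of the 300 bp printed above, and the ASH2L peak did not reach these bases. The other members with both were Gm41414 (36 and 129 tags), Gm3294 (29 and 430), Gm44107 (25 and 206), 1700031P21Rik (23 and 682) and Gm19590 (21 and 95).

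In 3 members ASH2L was listed without H3K4me3. Gm19705 (chr1:136670769-136690804) had 26 ASH2L tags with the summit 3 bp from its start, and Platr22 (chr1:136696211-136726142), which starts 25442 bp further on the same strand, had 34 tags with the summit 131 bp upstream. For both, Zfp281, a gene of a zinc finger factor of ES cells, is the nearest protein-coding gene, 45868 and 71310 bp away. Gm30978 (chr8:25415119-25429224), nearest to Fgfr1, had 26 tags with the summit 473 bp upstream. The nearest H3K4me3 peaks were 7878, 9348 and 10817 bp away, and the scores of the ASH2L peaks were 54.58, 87.37 and 75.64. The promoter of Gm19705 (chr1:136670519-136670818, plus strand, 13 CpG) and 150 bp around the ASH2L summits of Platr22 (chr1:136696005-136696154, plus strand, 2 CpG) and Gm30978 (chr8:25429622-25429771, minus strand, 1 CpG) are given below as the sites of ASH2L without listed H3K4me3, with CpG in capitals.
Gm19705: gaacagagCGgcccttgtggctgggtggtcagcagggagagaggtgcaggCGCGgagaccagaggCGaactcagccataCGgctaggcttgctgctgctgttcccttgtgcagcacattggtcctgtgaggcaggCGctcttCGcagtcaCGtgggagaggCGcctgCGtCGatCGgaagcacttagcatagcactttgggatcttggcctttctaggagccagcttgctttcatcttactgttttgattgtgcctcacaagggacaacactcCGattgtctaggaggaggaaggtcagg
Platr22: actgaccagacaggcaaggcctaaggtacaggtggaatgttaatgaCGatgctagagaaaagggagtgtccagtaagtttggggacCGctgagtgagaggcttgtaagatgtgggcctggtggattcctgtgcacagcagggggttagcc
Gm30978: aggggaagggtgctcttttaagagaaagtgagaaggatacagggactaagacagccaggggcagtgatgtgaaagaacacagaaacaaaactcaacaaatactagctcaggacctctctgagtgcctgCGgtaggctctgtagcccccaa

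Gm26917, Gm42418 and AY036118 are the rRNA group. All 3 lie under 1 ASH2L peak of 5016 tags (chr17:39842883-39848883) and 1 H3K4me3 peak of 3666 tags (chr17:39842859-39848926), where the annotation also has the rRNA gene CT010467.1 (chr17:39846353-39848827, minus strand). The fold enrichments were only 2.59 and 2.69. These were the most tags of any peak on chromosomes 1 to 19 in either list, followed by peaks of 959 ASH2L and 2121 H3K4me3 tags. Genes of rRNA are present in many copies in the genome, there was no control library, and the part of repeated sequence in these tags was not tested.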

How the data were processed

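Mouse E14 cells were profiled by CUT&RUN in 6 samples, and 2 peak lists, for H3K4me3 and HA-ASH2L, were used. The authors merged the duplicates and called peaks on mm10 with MACS. Per the file headers this was version 1.4.3, with no control library, a p-value cutoff of 1e-05, a local background of 10000 bp and 1 tag kept per position. The submitters' processing notes also name Bowtie2, SAMtools 1.5, bedtools and HOMER 4.10. The tag sizes in the headers, 142 and 151 bp, are longer than the fragment limit in the methods, so it is not settled which fragments were counted. The deposited tag counts are whole and not normalized. The deposited fold enrichment is a ratio to the background modelled by the caller. The deposited score is −log10 of the p-value times 10. Widths and summits are in bp.

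Each member's promoter was intersected with both lists, and where several peaks overlapped, the one with most tags gave the tags, and the widest the width. CpG ratios, masked bases and motifs came from the genome, and sequences were read from it by coordinates. Shares have 95% Wilson intervals. No test was made, since the lists hold no values per sample. Members and lists were chosen with earlier results of these data known. Named genes were listed symbols among members, the 10 members with most tags, the 5 widest, those with ASH2L, and 2 on each side of the distance limit. Gm27017, Gm40190 and Gm27032 were named after their values were seen. Alternatives varied the window, overlap, thresholds, start sites and distance limit. The overlap procedure was tested on simulated data. Scripts ran in Python 3.11.15. Tables were handled with pandas 2.3.3 and numpy 2.4.6. The genome was read with pysam 0.24.0, scipy 1.17.1 gave the intervals, and matplotlib 3.10.9 drew the figures.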

Additional observations from a re-analysis of the deposited data

How the results depend on the processing

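The lincRNA share with H3K4me3 was below the protein-coding one in 14 of 14 settings, of which 1, leaving out peaks that reach a protein-coding start, removed 0 member peaks and could not change it, and 68 of 111 alternative values moved by less than the counting interval. Values that moved are given in the order lincRNA share with H3K4me3, lincRNA share with ASH2L, protein-coding shares with H3K4me3 and ASH2L, where they apply. With promoters of 1000 bp on both sides, lincRNA had H3K4me3 in 21.8%, and protein-coding genes had H3K4me3 in 66.4% and ASH2L in 7.45%. With the summit required inside the promoter, these were 10.3%, 0.176%, 37.7% and 3.11%, median widths were 1645 and 2987 bp, median tags 155 and 495, the difference in share −27.3 percentage points and the lincRNA share at a CpG ratio of 0.6 or more 49.5%. With an overlap of at least 200 bp, protein-coding shares were 64.3% and 5.43%. With peaks at or above the median fold enrichment, shares were 10.4%, 0.154%, 31.5% and 3.20%, widths 1530 and 2336 bp, tags 136.5 and 355, the difference −21.0 points and the high-CpG share 29.7%. With a score of at least 100, shares were 16.5%, 0.0878%, 62.5% and 0.827%, and lincRNA peaks had a median of 1997 bp and 202 tags. Apart from the rRNA group, Gm26709 was the only member past this score for ASH2L. With any transcript start of the gene, shares were 20.6%, 69.8% (protein-coding H3K4me3) and 8.07% (protein-coding ASH2L), the protein-coding width 2975 bp and the difference −49.1 points. With a limit of over 50000 bp the lincRNA share was 13.8% and the difference −51.2 points. Against protein-coding genes far from other starts, whose shares were 61.4% and 5.84%, width 2767 bp and tags 435, the difference was −42.1 points. The cause of these shifts was not tested. Leaving out the rRNA group and counting the distance from any transcript of a protein-coding gene were chosen after seeing the data, and with them the lincRNA share was 19.3% and 19.4%. The other calls of a marked promoter by CpG class, distance and named group were also added then. No paired analysis was possible because the duplicates were merged before peak calling, and leaving out a replicate could not be run for the same reason. Tags in the lists set a floor of 19 for H3K4me3 and 17 for ASH2L peaks, so weaker signal was not seen.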
